A study of Mus musculus with 12 samples.

Results

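The 10 genes described here encode the enzymes that take triglyceride apart in adipocytes, the proteins that switch those enzymes on or off, and proteins that coat or enlarge the lipid droplet. They were found by their symbols in the first column of the table of normalized counts, where all 10 were present among 48321 genes, and all 10 were among the 11998 genes tested. The lipases were Pnpla2, Lipe and Mgll, the regulators were Abhd5, G0s2 and Hilpda, and the droplet proteins were Plin1, Plin2, Plin4 and Cidec.

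The 12 RNAseq libraries came from brown preadipocytes of a wild-type newborn mouse, immortalized with SV40 large T antigen and transduced with lentivirus. The transduced cells were selected with puromycin to give stable lines. The vector cells carried empty pLEX and the tSema4B cells carried pLEX with a truncated, soluble form of Sema4B, a semaphorin whose ectodomain is shed by ADAM17. Differentiation was induced in all cells with the PPARγ ligand rosiglitazone, IBMX, dexamethasone, insulin and T3, the later medium held only insulin and T3 of these, and the cells were used on day 8, so every group shared the immortalization, the transduction and these agents. Norepinephrine (NE) is the agonist that sympathetic nerves release onto brown adipocytes. The cells were then kept in serum-free medium with bovine serum albumin for 6 h, without (unstimulated) or with 2 μM NE. This gave 4 groups of 3 libraries, vector and tSema4B cells without stimulation (vector unstimulated and tSema4B unstimulated) and with it (vector NE and tSema4B NE). Each construct was represented by a single stable line, the promoter that drove tSema4B is not given in the sources used here, and the replicates are technical ones by their labels. The p-values below therefore measure the spread between these libraries, and a difference between the constructs cannot be told apart from one between the lines.

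Adipocytes store triglyceride in lipid droplets and release it stepwise. Pnpla2 (ATGL) removes the first fatty acid, Lipe (hormone-sensitive lipase, HSL) the next, and Mgll cleaves the monoglyceride that remains. At rest the perilipin Plin1 holds Abhd5 (CGI-58), the coactivator of ATGL, at the droplet surface, and phosphorylation by protein kinase A after adrenergic stimulation sets Abhd5 free. G0s2 and Hilpda are small proteins that inhibit ATGL. In brown adipocytes the fatty acids set free both fuel the mitochondria and activate Ucp1.

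The genes lie on 6 chromosomes of GRCm38, given here from the GENCODE annotation. Pnpla2 (ENSMUSG00000025509.15) is on chromosome 7 from 141455198 to 141460743 on the plus strand, and the same chromosome holds Lipe (ENSMUSG00000003123.15, 25379527 to 25398710, minus strand) and Plin1 (ENSMUSG00000030546.14, 79720218 to 79732903, minus strand). Chromosome 6 holds Mgll (ENSMUSG00000033174.17, 88724412 to 88828360, plus strand), Hilpda (ENSMUSG00000043421.8, 29272488 to 29275446, plus strand) and Cidec (ENSMUSG00000030278.11, 113424634 to 113435760, minus strand). G0s2 (ENSMUSG00000009633.3) lies on chromosome 1 from 193272161 to 193273217 on the minus strand, and Plin2 (ENSMUSG00000028494.12) on chromosome 4 from 86648386 to 86670060, also on the minus strand. Abhd5 (ENSMUSG00000032540.16) is on chromosome 9 from 122351608 to 122381524 on the plus strand, and Plin4 (ENSMUSG00000002831.13) on chromosome 17 from 56100591 to 56109803 on the minus strand. The strand setting of the counting is not given in the sources used here, and reads of a gene and of an antisense partner cannot be told apart in these counts. The exons of Lipe shared 861 bases with the antisense gene 4732471J01Rik, which had 1.55 to 10.7 normalized counts, and those of Abhd5 shared 950 bases with A730085K08Rik, which had 0 to 9.28. Mgll shared 152 bases with Gm26588, which had at most 0.672 normalized counts, and Plin4 shared 8 with Hdgfl2.

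The 250 bases before the start site were read from the RefSeq promoters (GRCm38.p6) of all 10 genes, which have 14 start sites between them, and were searched on both strands for short motifs of regulators known in adipocytes. TGACG, a short site within the cAMP response element through which protein kinase A signals reach genes, was present before Abhd5, G0s2 and Hilpda, in 4 of the 14 windows, against 17.8% of all 32851 windows. The windows of 2 Hilpda start sites overlap and share a match, which was counted in each. TTGCNNAA, a core motif of the C/EBP family of adipogenic factors, was present before Plin1, with 2 matches, and before Cidec, and in 9.56% of all windows. AGGTCA, a site that nuclear receptors recognise, was found before Abhd5 and Plin2 (14% of all windows). ACGTG, the core of the hypoxia response element, was found before Hilpda, Lipe and Mgll (16.6%). Before Lipe and a start site of Mgll it lay within the E-box CACGTG (6.02%), and before another start site of Mgll it did not. AGAACA, part of the site of the glucocorticoid receptor, was found before Mgll alone among these genes (16.1%). Neither the full cAMP response element TGACGTCA, which contains TGACG (1.55%), nor TATAAA (12.4%) was in any of the 14 windows. The windows of the 3 regulators of ATGL are shown because their values moved apart from one another, and that of Plin1 because it held the 2 TTGCNNAA matches. Each is written from 5′ to 3′ on the strand of its gene, and capitals mark the TGACG match on either strand in the first 3 and the 2 TTGCNNAA matches in Plin1. A match describes the letters of the window and was not tested for binding.
Abhd5, plus strand, chr9:122351366-122351615: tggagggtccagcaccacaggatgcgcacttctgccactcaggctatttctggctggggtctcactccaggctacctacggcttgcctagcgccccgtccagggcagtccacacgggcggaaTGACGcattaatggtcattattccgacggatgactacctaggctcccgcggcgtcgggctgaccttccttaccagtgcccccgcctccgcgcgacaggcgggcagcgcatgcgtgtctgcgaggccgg
G0s2, minus strand, chr1:193273189-193273438: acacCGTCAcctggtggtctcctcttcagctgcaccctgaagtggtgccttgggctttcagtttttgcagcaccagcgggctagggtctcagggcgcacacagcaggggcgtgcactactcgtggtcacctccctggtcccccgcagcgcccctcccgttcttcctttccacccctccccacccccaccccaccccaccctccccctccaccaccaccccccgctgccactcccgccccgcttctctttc
Hilpda, plus strand, the first of its start sites, chr6:29272238-29272487: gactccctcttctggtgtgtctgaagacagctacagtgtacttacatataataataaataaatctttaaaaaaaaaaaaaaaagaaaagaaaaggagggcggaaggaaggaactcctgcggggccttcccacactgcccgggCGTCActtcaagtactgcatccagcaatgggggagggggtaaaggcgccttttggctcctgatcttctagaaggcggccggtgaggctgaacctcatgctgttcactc
Plin1, minus strand, chr7:79732777-79733026: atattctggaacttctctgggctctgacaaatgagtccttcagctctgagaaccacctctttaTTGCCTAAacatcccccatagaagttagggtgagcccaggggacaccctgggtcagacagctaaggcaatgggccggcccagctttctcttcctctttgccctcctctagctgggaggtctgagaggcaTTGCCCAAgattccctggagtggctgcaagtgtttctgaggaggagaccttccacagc

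Values are read counts per gene that the authors normalized for library depth with DESeq2. A gene was called when limma's test gave a Benjamini-Hochberg adjusted p of 0.05 or less over all genes tested and the log2 fold change, on the scale of log2(normalized count + 1), was at least 1 in size. Each library held between 2000780 and 5409583 reads on genes, vector libraries held more reads than tSema4B libraries of the same condition, and the values of the 10 genes rest on 20 to 5435 reads per gene and library. Sema4b itself was higher in the tSema4B libraries, with a mean of 281514 ± 31108 against 116797 ± 6692 normalized counts in unstimulated cells (SD, n = 3, log2 fold change 1.27, adjusted p = 9.45e-10) and of 234276 ± 32374 against 74266 ± 8219 after NE (log2 fold change 1.65, adjusted p = 1.21e-11). It was also high in the empty-vector libraries, where it took 3.58 to 4.02% of all reads without NE and 2.04 to 2.57% after it and ranked 2 or 3 among all genes. Reads of the construct and of the endogenous gene were not told apart, and the source of the vector reads was not tested. Means are given as ± SD over 3 libraries throughout.

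In unstimulated cells, 8 of the 10 genes were called lower in tSema4B than in vector (Pnpla2, Lipe, Mgll, Abhd5, G0s2, Plin1, Plin4 and Cidec) and 0 were called higher (limma, with 0 also by edgeR and by DESeq2 and 0 at an unadjusted p under 0.05). Of all genes tested, 2.71% were called lower. With the adjusted p alone, 9 of the 10 were lower, against 7.39% of all genes, and the libraries of the 2 groups did not overlap for 9 of the 10, against 29.4% of all genes. After NE these 8 genes were again called lower in tSema4B, where 3.73% of all genes were, and again 0 were called higher by limma, edgeR or DESeq2 or at an unadjusted p under 0.05. All 10 then passed the adjusted p, against 11.2% of all genes, and the groups did not overlap for any of the 10, against 37.7%. The median log2 difference of the 10 genes was -1.87 without NE and -1.5 after it, and that of all genes tested was -0.0025 and -0.010. Fold differences ran from 1.20-fold (Hilpda, which did not pass the test) to 6.69-fold (Cidec) lower in unstimulated cells.

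**Figure D1:**
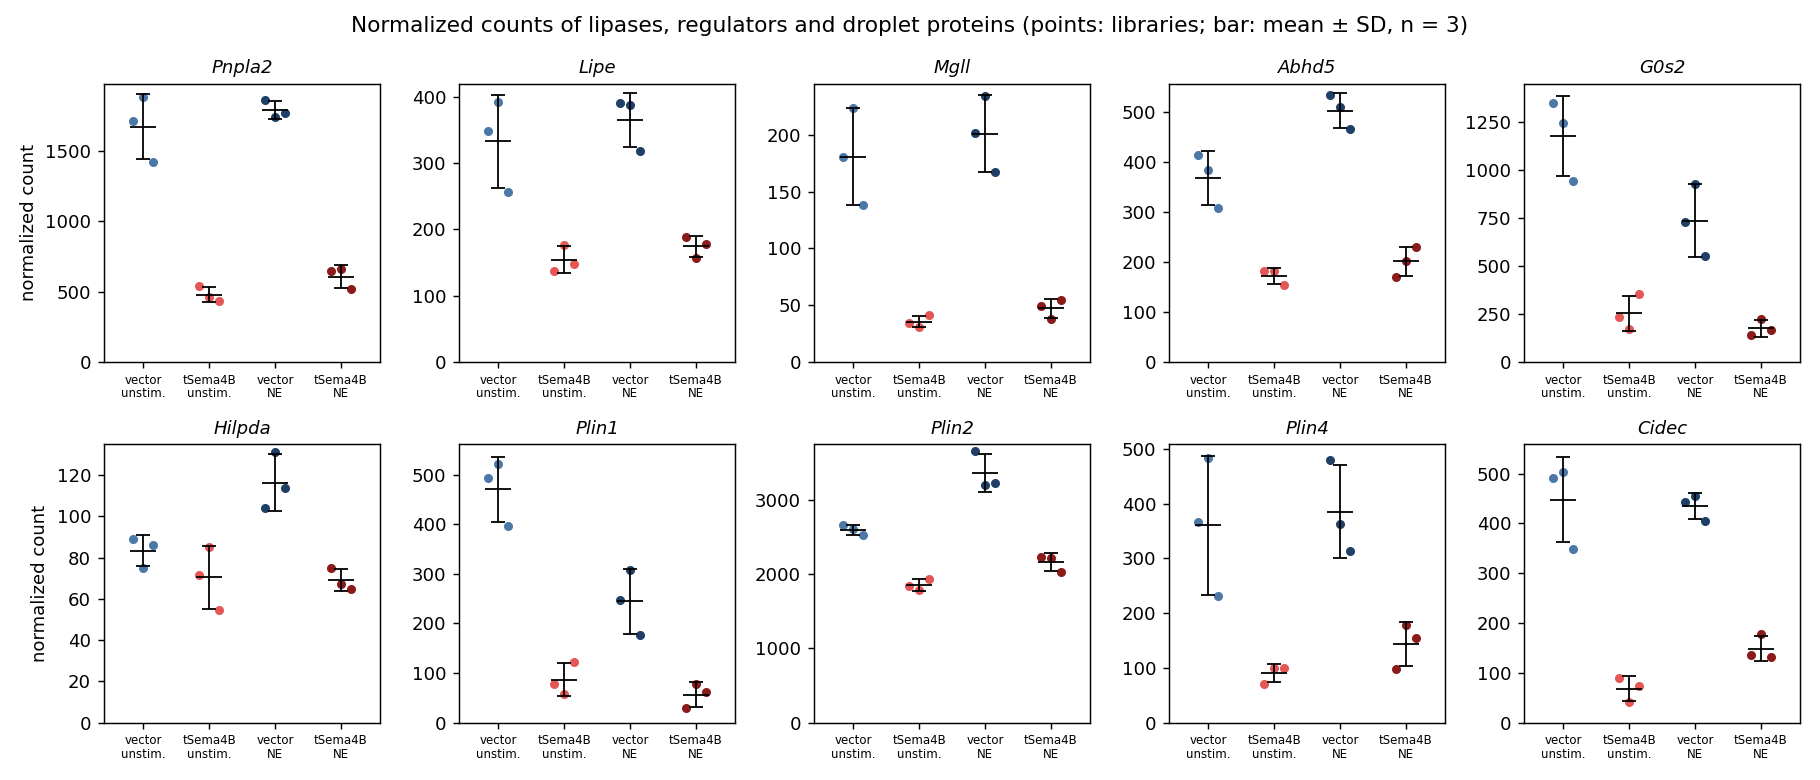
Normalized counts of the 10 genes on a linear axis from 0, with 1 point per library and a bar for the mean ± SD (n = 3) in each of the 4 groups. The tSema4B points lie below the vector points in both conditions for every gene except Hilpda in unstimulated cells, where they overlap.

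Fewer of these genes were called with NE. In vector cells 0 of the 10 genes were called in either direction (limma, edgeR and DESeq2 each gave 0, and 5 had an unadjusted p under 0.05), where 1.66% of all genes were called higher and 0.975% lower. With the adjusted p alone, Abhd5 and Plin2 were higher (6.82% of all genes) and G0s2 and Plin1 were lower (4.78% of all genes). The NE and unstimulated libraries did not overlap for these 4 and for Hilpda, 5 of 10, against 33.3% of all genes. In tSema4B cells, Cidec alone among the 10 was called higher, with 1.31% of all genes called higher, and by limma it was also the only one of the 10 past the adjusted p, against 3.68%. The libraries did not overlap for Cidec and Plin2, against 20.7% of all genes. The median log2 difference with NE was 0.14 in vector and 0.22 in tSema4B cells, beside -0.019 and -0.0048 over all genes. Comparisons that share libraries are set side by side here and are not independent of one another.

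Markers of the cell types that the cultures could hold differed between the constructs as well. All 9 tested genes of a list of 10 adipocyte markers, which includes Adipoq, Pparg, Cebpa and Fabp4, were called lower in tSema4B in both conditions (against 2.71% and 3.73% of all genes tested), with a median log2 fold change of -2.50 without NE and -2.29 after it, both further from 0 than the medians of the 10 lipolysis and droplet genes. Their summed level was 41109 to 46563 normalized counts in vector unstimulated, 6800 to 9496 in tSema4B unstimulated, 55189.9 to 67283 in vector NE and 10779 to 12252 in tSema4B NE libraries. Fabp4 was the largest single part of these sums, with means of 24034, 4091, 40898 and 5518 in the same order of groups. With NE in vector cells the median log2 fold change of the 9 markers was -0.013. Lep, the remaining marker, had no reads in any NE library and at most 4 in an unstimulated one. Of 7 tested preadipocyte and fibroblast markers, 1 was called higher in tSema4B in each condition (against 1.11% and 2.03% of all genes tested), and with the adjusted p alone 5 were higher without NE and 6 after it (against 5.64% and 9.79%). Their sums were 9038 to 9491 in vector unstimulated, 16039 to 18232 in tSema4B unstimulated, 7014 to 7904 in vector NE and 13764.0 to 14636 in tSema4B NE libraries. Col1a1 was the largest single part of these sums, with means of 5737, 11724, 4660 and 9721 in the same order of groups. The part of cell composition in the results for the 10 genes was not tested, and in bulk libraries such as these, fewer cells of a type and less RNA per cell cannot be told apart. Of 5 tested genes of a list of 6 brown adipocyte markers, 3 were called lower in tSema4B in both conditions (against 2.71% and 3.73% of all genes tested). They were Ucp1, Cidea and Ebf2. Prdm16 (-1.17 and -0.31 on the log2 scale, adjusted p = 0.106 and 0.694) and Ppargc1a (0.41 and 0.36, adjusted p = 0.682 and 0.682) did not pass in either condition, and Dio2 was at 0 in every library. Ucp1, the defining marker of brown adipocytes, had 11 to 14 reads in vector unstimulated and no reads in tSema4B unstimulated libraries, and after NE it had 268 to 293 normalized counts in vector and 60.8 to 66.5 in tSema4B libraries. Sums of macrophage markers stayed at or under 24.6 and those of endothelial markers at or under 21.9 normalized counts, with Ptprc, Adgre1 and Kdr at 0 in every library. Csf1r, the 1 macrophage marker tested, was called higher with NE in vector (log2 fold change 2.43) and tSema4B cells (3.00). Of all genes tested, 1.66% and 1.31% were called higher there. Csf1r had 1 to 2 reads in vector unstimulated and 15 to 22 in vector NE libraries. Sums of smooth muscle markers were 729 to 1150 normalized counts in vector and 1065 to 1151 in tSema4B unstimulated libraries. After NE they were 580 to 782 in vector and 477 to 819 in tSema4B libraries. For muscle markers the sums were 31.5 to 41.4 in vector and 15.5 to 38.7 in tSema4B unstimulated libraries. After NE these were 34.0 to 41.0 and 4.29 to 18.0. Of 2 tested muscle markers, 1 was called lower in tSema4B in both conditions (against 2.71% and 3.73% of all genes tested). It was Acta1, with 9 to 22 reads in vector and 0 to 4 in tSema4B unstimulated libraries. Mitochondrially encoded genes took 13.4 to 16.7% of the counts in vector libraries and 6.91 to 7.89% in tSema4B libraries. With all libraries rescaled to the same total over nuclear genes, 8 of the 10 genes were called lower in each condition.

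**Figure D2:**
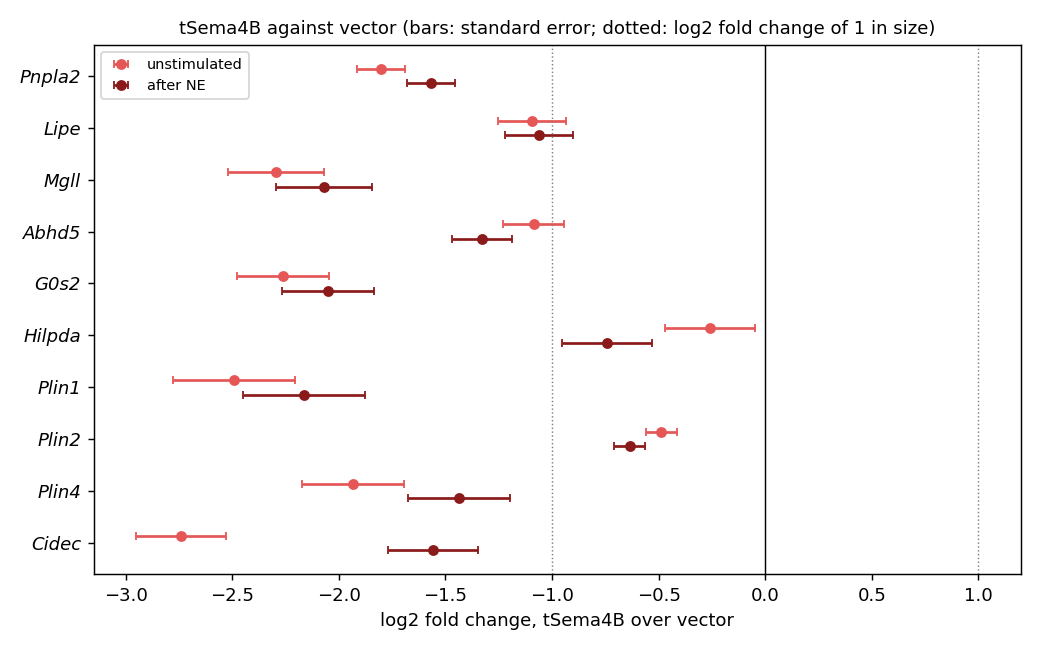
Log2 fold change of tSema4B over vector for each gene, unstimulated and after NE, with bars for the standard error from limma and dotted lines at a log2 fold change of 1 in size. Pnpla2, Lipe, Mgll, Abhd5, G0s2, Plin1, Plin4 and Cidec lie past -1 in both conditions, Plin2 and Hilpda between -1 and 0.

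Pnpla2, the lipase that starts the breakdown of stored triglyceride, fell 3.49-fold in tSema4B. Its 3 libraries held 1713, 1882 and 1424 normalized counts in vector unstimulated cells and 538, 461 and 434 in tSema4B unstimulated cells. After NE they held 1865, 1739 and 1769 in vector and 645, 659 and 515 in tSema4B cells. Every tSema4B library lay under every vector library, with or without NE. Means were 1673 ± 232 and 477 ± 53.7 in unstimulated cells (log2 fold change -1.80, SE 0.112, adjusted p = 1.94e-10) and 1791 ± 65.6 and 606 ± 79.1 after NE (log2 fold change -1.57, SE 0.112, adjusted p = 1.13e-09). With NE, the vector libraries overlapped the unstimulated ones (log2 fold change 0.11, adjusted p = 0.626), and so did the tSema4B libraries (log2 fold change 0.34, adjusted p = 0.0759). In tSema4B cells this adjusted p ran from 0.0218 to 0.230 over 17 alternatives and passed in 3, among them without tSema4B unstimulated replicate 1 and without tSema4B NE replicate 3, with the fold under its threshold. Among genes outside the 10 with a mean of at least 100 normalized counts, the patterns most like that of Pnpla2 over the 12 libraries were those of Ankef1 and Impdh1 (Pearson r 0.99 and 0.98 on the log2 scale, libraries that share 4 groups).

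Lipe, which encodes HSL, the main diglyceride lipase of adipocytes, was lower by a smaller factor. It stood at 349, 393 and 256 normalized counts in vector unstimulated and at 137, 176 and 148 in tSema4B unstimulated libraries. With NE the values were 390.4, 387 and 318 in vector and 189, 156 and 177 in tSema4B. The construct groups did not overlap in either condition, while NE and unstimulated libraries overlapped in both lines. The fold was 2.13 without NE (log2 fold change -1.09, SE 0.159, adjusted p = 4.03e-05) and 2.09 after NE (log2 fold change -1.06, adjusted p = 4.57e-05), and both stood close to the fold threshold. Without vector unstimulated replicate 2 the first became -0.96, and without tSema4B NE replicate 2 the second became -0.99, so that neither was then called although the adjusted p stayed under 0.05. NE itself gave log2 fold changes of 0.15 in vector and 0.18 in tSema4B cells (adjusted p = 0.628 and 0.585).

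Mgll, the monoglyceride lipase of the last step, had the lowest mean per kilobase of the 10 genes in each group and the largest fold of the 3 lipases. Vector unstimulated libraries held 180.3, 224 and 138 normalized counts, and tSema4B unstimulated libraries 34.6, 30.9 and 41.1. After NE the values were 202, 235 and 167 in vector and 49.3, 37.9 and 54.2 in tSema4B. The lowest vector library was more than any tSema4B library in both conditions, and the lowest of the tSema4B libraries rested on 20 reads. The fall was 4.91-fold without NE (log2 fold change -2.30, SE 0.225, adjusted p = 1.69e-07) and 4.20-fold after NE (log2 fold change -2.07, adjusted p = 7.88e-07). NE gave 0.17 in vector and 0.39 in tSema4B cells on the log2 scale, with overlapping libraries in both (adjusted p = 0.724 and 0.351).

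Abhd5, the protein that activates ATGL once it leaves Plin1, fell in tSema4B and was higher with NE in vector cells. Its libraries held 413, 384 and 308 normalized counts in vector unstimulated and 182, 181 and 153 in tSema4B unstimulated cells. In NE-treated cells the values were 534, 509 and 465 for vector and 171, 202 and 229.9 for tSema4B. All vector NE libraries lay above all vector unstimulated libraries, whereas the tSema4B libraries overlapped with and without NE. tSema4B against vector gave a 2.12-fold fall without NE (log2 fold change -1.09, SE 0.142, adjusted p = 1.00e-05) and a 2.51-fold fall after NE (log2 fold change -1.33, adjusted p = 6.60e-07). Without vector unstimulated replicate 1 the log2 fold change in unstimulated cells was just under the fold threshold (-0.999). NE in vector cells was below the fold threshold (log2 fold change 0.45, adjusted p = 0.0396), and that adjusted p ran from 0.0104 to 0.211 over 17 alternatives and passed in 9 of them. In tSema4B cells NE gave 0.21 (adjusted p = 0.439), and the difference between the lines in the NE effect did not pass the test (log2 difference -0.24, adjusted p = 0.738).

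G0s2, an inhibitor of ATGL, was lower with tSema4B and, in vector cells, with NE. Vector unstimulated libraries held 1344, 1241 and 941 normalized counts and tSema4B unstimulated libraries 231, 173 and 352. With NE the values were 729, 927 and 551 in vector and 139, 225 and 164 in tSema4B cells. The lowest vector unstimulated library (941) exceeded the highest vector NE library (927) by a narrow margin, and the tSema4B libraries of the 2 conditions overlapped. In unstimulated cells G0s2 fell from 1175 ± 209.5 to 252 ± 91.1 with tSema4B (4.80-fold, log2 fold change -2.26, SE 0.215, adjusted p = 1.10e-07), and after NE the fold was 4.15 (log2 fold change -2.05, adjusted p = 4.75e-07). The difference with NE in vector cells was under the fold threshold (log2 fold change -0.69, adjusted p = 0.0388), with an adjusted p between 0.00312 and 0.235 over 17 alternatives, of which 11 passed. In tSema4B cells it was -0.48 and did not pass (adjusted p = 0.206), and it ran from -0.72 to -0.21 without single libraries. Over the 12 libraries the log2 values of G0s2 and Plin1 had the highest correlation of any pair of the 10 genes (Pearson r 0.99, libraries that share 4 groups), and Pparg, the main adipogenic transcription factor, and Ppp2r5a were the genes outside the 10 most like G0s2 (both 0.98).

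Hilpda, a hypoxia-inducible protein of the droplet that also inhibits ATGL, was the one gene of the 10 for which the unstimulated constructs overlapped. It had 89.0, 74.8 and 86.0 normalized counts in vector unstimulated and 71.5, 85.1 and 54.8 in tSema4B unstimulated libraries. After NE it had 104, 131 and 114 in vector and 75.1, 67.2 and 64.7 in tSema4B cells. The vector NE libraries were the highest of all 12, and the tSema4B NE libraries lay under every vector NE library. The difference between the constructs without NE did not pass the test (log2 fold change -0.26, SE 0.211, adjusted p = 0.483), and after NE the level was 1.67-fold lower in tSema4B, under the fold threshold (log2 fold change -0.74, adjusted p = 0.0146). That adjusted p was 0.0805 without vector NE replicate 2 and passed in the other 16 of 17 alternatives. NE gave 0.47 in vector cells, with all NE libraries higher but no pass (adjusted p = 0.168), and -0.01 in tSema4B cells. The difference between the lines in the NE effect was -0.48 (SE 0.298, adjusted p = 0.621). The 4 lowest correlations among the 10 genes over the 12 libraries all involved Hilpda, down to a Pearson r of 0.44 with Plin1.

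Within each library the balance of the regulators to the lipase was taken as a log2 ratio of normalized counts, which cancels the scaling of the library. Abhd5 relative to Pnpla2 was 1.64-fold higher in tSema4B than in vector unstimulated libraries, without overlap, and after NE it overlapped (log2 difference 0.72 and 0.24). In vector cells this ratio was higher in every NE library than in every unstimulated one, by 1.27-fold on average. For G0s2 relative to Pnpla2, NE libraries were all lower than unstimulated ones, 1.74-fold in vector and 1.77-fold in tSema4B cells, whereas the constructs overlapped in both conditions. Without single libraries the log2 difference of this ratio with NE in tSema4B cells ran from -1.04 to -0.49. Hilpda relative to Pnpla2 was 2.92-fold higher in tSema4B without NE and 1.77-fold higher after NE, without overlap in either, and the log2 ratio in unstimulated cells was -4.31 ± 0.304 in vector and -2.76 ± 0.293 in tSema4B. With NE this ratio was 1.28-fold lower in tSema4B cells, without overlap by a narrow margin (-2.973 against -2.964). The log2 difference there was -0.35, and it ran from -0.45 to -0.18 without single libraries. In vector cells the libraries overlapped (log2 difference 0.37). Among the lipases, Lipe relative to Pnpla2 was higher in tSema4B by 1.64-fold without NE and 1.42-fold after it, and Mgll relative to Pnpla2 was 1.41-fold lower without NE, with overlap after NE. Counted over 8 ratios and 4 comparisons there were 32 tests, and an exact permutation test (two-sided) on groups of 3 and 3 has 0.1 as its smallest p, which every ratio without overlap reached (0.178 after Benjamini-Hochberg adjustment over the 32), so none of these ratios could pass at 0.05.

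**Figure D3:**
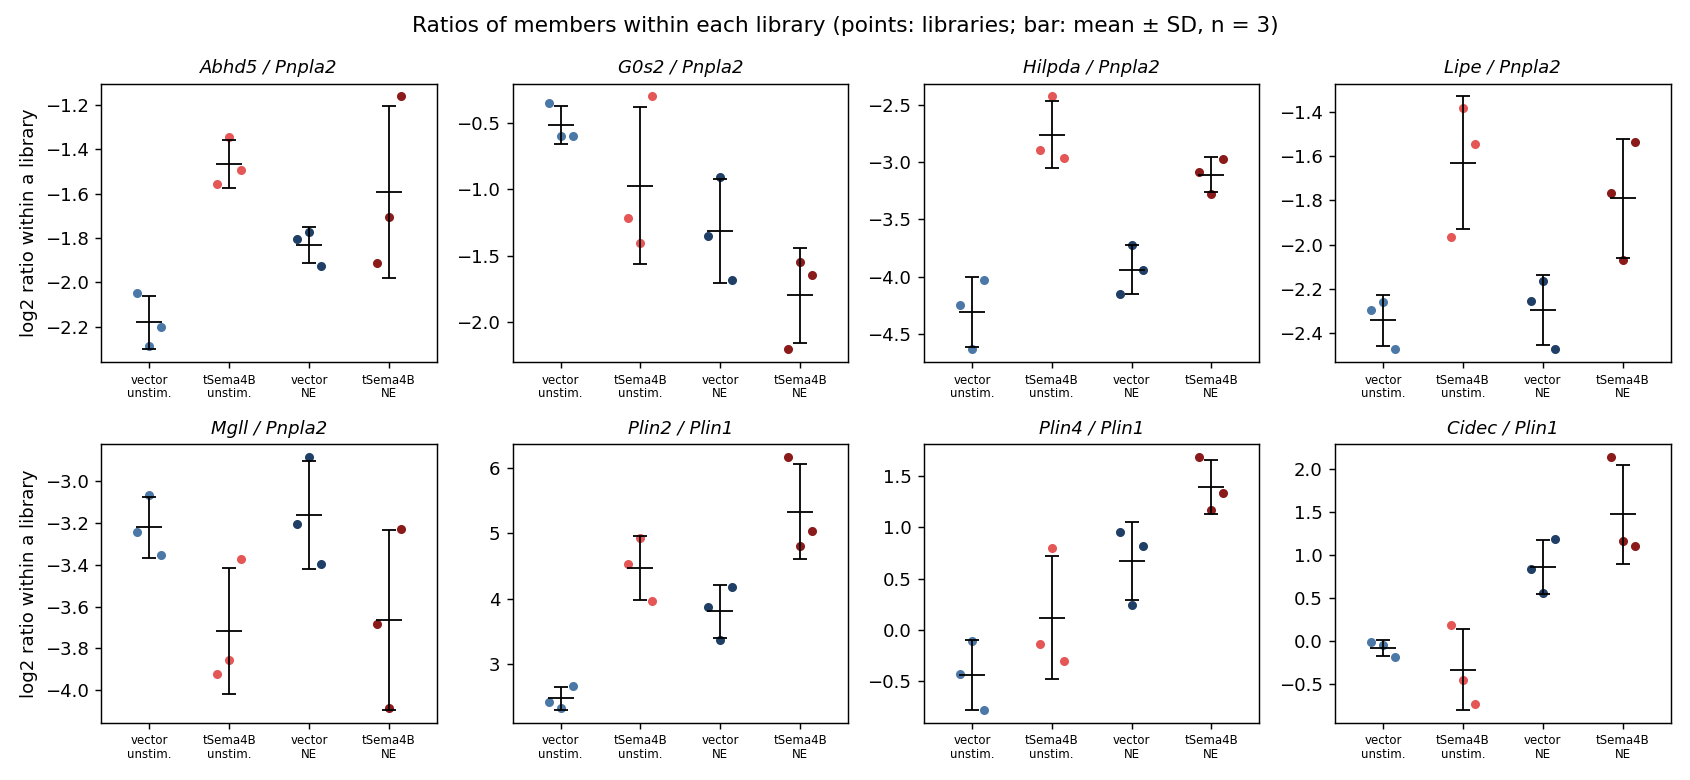
Log2 ratios of the normalized counts of 2 genes within each library, with points for libraries and a bar for the mean ± SD (n = 3), by group. The ratio of Hilpda to Pnpla2 is higher in tSema4B in both conditions, and the ratio of G0s2 to Pnpla2 is lower with NE in both lines.

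Plin1, the perilipin that guards the droplet of adipocytes and holds Abhd5 at rest, fell with tSema4B, and with NE it was lower in vector cells, under the fold threshold. Its values were 494, 521 and 396 normalized counts in vector unstimulated and 78.7, 57.2 and 123 in tSema4B unstimulated libraries. NE-treated libraries held 248, 308 and 177 in vector and 30.0, 78.6 and 60.8 in tSema4B cells. The vector NE libraries lay between the 2 unstimulated groups without touching either, and the tSema4B libraries overlapped with and without NE. With tSema4B, Plin1 fell 5.63-fold in unstimulated cells (log2 fold change -2.49, SE 0.286, adjusted p = 1.67e-06) and 4.48-fold after NE (log2 fold change -2.16, adjusted p = 1.02e-05). The NE effect in vector cells was just under the fold threshold (log2 fold change -0.97, adjusted p = 0.0300). It passed both thresholds with all libraries rescaled to the same total (-1.01), with quantile normalization (-1.001), without vector unstimulated replicate 3 (-1.09) and without vector NE replicate 2 (-1.15), while its adjusted p ran from 3.57e-04 to 0.177 over 17 alternatives and passed in 11. In tSema4B cells the difference was -0.64 (adjusted p = 0.208), and it ran from -0.93 to -0.25 without single libraries.

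Plin2, the perilipin found on droplets of most cell types, had the highest mean per kilobase of the 10 genes in each group and was lower in tSema4B by a small factor. It had 2657, 2609 and 2524 normalized counts in vector unstimulated and 1843, 1779 and 1935 in tSema4B unstimulated libraries. After NE it had 3652, 3202 and 3225 in vector and 2236, 2220.3 and 2022 in tSema4B libraries. Neither the constructs nor the conditions overlapped in any of the 4 comparisons, and the SD within a group was at most 254. tSema4B was lower by 1.40-fold without NE (log2 fold change -0.49, SE 0.0737, adjusted p = 6.14e-05) and by 1.55-fold after NE (log2 fold change -0.64, adjusted p = 1.94e-06), both under the fold threshold. Vector cells were higher with NE (log2 fold change 0.37, adjusted p = 0.00204, under the fold threshold, past the adjusted p in all 17 alternatives), and in tSema4B cells the difference was 0.22 (adjusted p = 0.0795). Relative to Plin1 in the same library, Plin2 was 4.01-fold higher in tSema4B without NE, 2.88-fold higher after NE and 2.53-fold higher with NE in vector cells, each without overlap.

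Plin4, a perilipin of nascent droplets that adipocytes express strongly, fell with tSema4B and spread widely among the vector unstimulated libraries (361 ± 127). Its vector unstimulated libraries held 367, 484 and 231 normalized counts and its tSema4B unstimulated libraries 71.5, 101 and 99.9. The NE-treated libraries held 479.7, 363 and 314 in vector and 98.7, 178 and 155 in tSema4B cells. All tSema4B libraries lay under all vector libraries of the same condition, and NE and unstimulated libraries overlapped in both lines. The fall was 3.82-fold without NE (log2 fold change -1.93, SE 0.238, adjusted p = 4.57e-06) and 2.71-fold after NE (log2 fold change -1.44, adjusted p = 1.44e-04). The NE effect was 0.14 in vector and 0.63 in tSema4B cells on the log2 scale (adjusted p = 0.794 and 0.122, the latter 0.0312 without tSema4B NE replicate 1). Against Plin1 in the same library, Plin4 was higher in all NE than in all unstimulated libraries, by 2.15-fold in vector and 2.42-fold in tSema4B cells.

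Cidec, the droplet protein that lets small droplets pass their lipid to larger ones, had the widest fold difference of the 10 genes in unstimulated cells and was the one called with NE. Vector unstimulated libraries held 492, 503 and 349 normalized counts, and tSema4B unstimulated libraries 89.4, 41.8 and 73.9. After NE the values were 444, 455 and 405 in vector and 135, 177 and 132 in tSema4B cells. Each tSema4B NE library lay above each tSema4B unstimulated library, while the vector libraries overlapped with and without NE. Cidec averaged 448 ± 86.1 in vector and 68.4 ± 24.3 in tSema4B unstimulated cells, a fall of 6.69-fold (log2 fold change -2.74, SE 0.211, adjusted p = 4.14e-09), and after NE the fall was 2.94-fold (log2 fold change -1.56, adjusted p = 1.31e-05). With NE it rose 2.23-fold in tSema4B cells, to a mean of 148 ± 25.1 (log2 fold change 1.16, SE 0.211, adjusted p = 0.00116), and the vector cells gave -0.03 (adjusted p = 0.963). The rise rested in part on the lowest library, since without tSema4B unstimulated replicate 2 it was 0.84 on the log2 scale (adjusted p = 0.00612), under the fold threshold. Cidec had a mean of 148 in the tSema4B NE libraries, which still lay under all vector libraries. Relative to Plin1 in the same library, Cidec was 1.92-fold higher with NE in vector and 3.48-fold higher in tSema4B cells, without overlap in either. Between the constructs this ratio overlapped with and without NE.

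Whether NE acted differently in the 2 lines was tested with the interaction term, which 0.025% of all genes passed with limma, 0.0333% with edgeR and 1.46% of the 5950 genes to which DESeq2 gave an adjusted p. Of the 10 genes 0 passed with limma, 0 with edgeR and 1 with DESeq2, and 1 had an unadjusted p under 0.05. That gene was Cidec in each case, with a log2 difference of 1.18 (SE 0.298, limma adjusted p = 0.143) and, by DESeq2 on whole reads, 1.14 (adjusted p = 0.00943). Over 22 alternatives the adjusted p of Cidec lay between 0.00943 and 0.378. The next in size were Plin4 (0.50, adjusted p = 0.664) and Hilpda, and the other 7 genes lay at or under 0.33 in size.

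**Figure D4:**
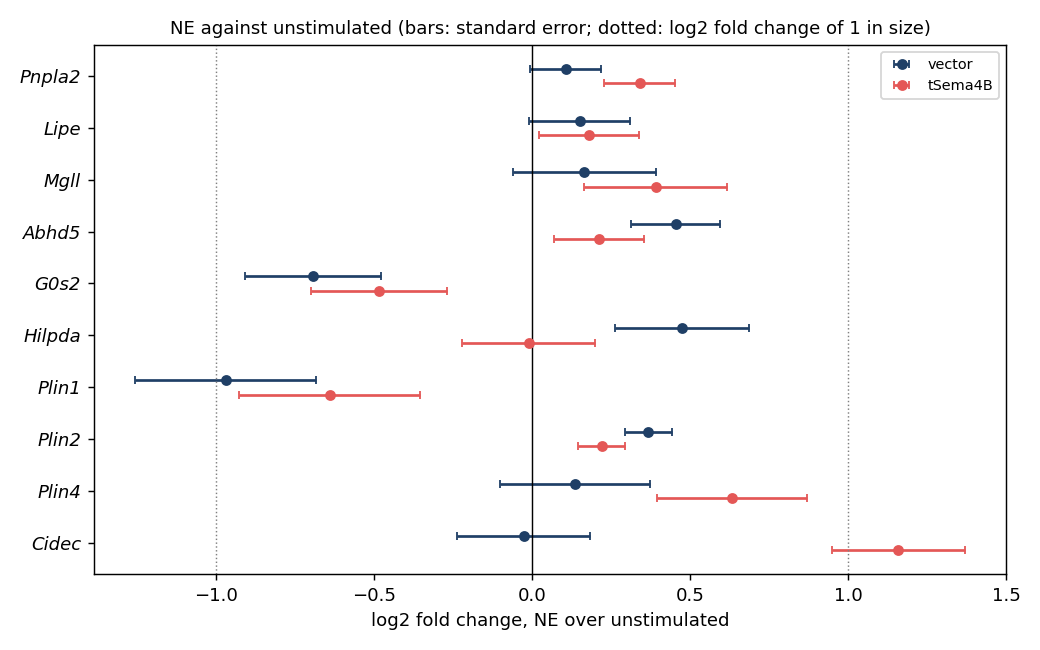
Log2 fold change of NE over unstimulated for each gene in vector and in tSema4B cells, with bars for the standard error from limma and dotted lines at a log2 fold change of 1 in size. Cidec in tSema4B cells lies past 1, and G0s2 and Plin1 lie below 0 in both lines.

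Levels of different genes were compared as normalized counts per kilobase of exon, with the exons of all protein-coding transcripts of a gene merged. Which transcripts the cells used was not determined, so the order of genes and the perilipin shares below rest on these merged lengths. In vector unstimulated cells Plin2 (1375 ± 35.9 per kb) and G0s2 (1349.6 ± 241) led with overlapping libraries, then came Pnpla2 (637) and Cidec (255), each apart from its neighbours. Plin1 (121) and Abhd5 (117) overlapped, as did Hilpda (75.5), Plin4 (62.4) and Lipe (60.6) in that order, and Mgll was last (37.5). In tSema4B unstimulated cells Plin2 stood alone at the top (981 ± 41.4), G0s2 (289) and Pnpla2 (182) overlapped, Hilpda had moved up to the fourth place (63.9), and Mgll was last again (7.37 ± 1.07). From the fourth to the eighth place of that group, each gene overlapped the next one. After NE, Plin2 led in vector (1779) and tSema4B cells (1144). In vector NE cells G0s2 (844) and Pnpla2 (682) followed with overlap, and in tSema4B NE cells they followed in the other order (231 for Pnpla2 and 202 for G0s2), also with overlap. Plin1 took the fifth place in vector unstimulated cells and the ninth after NE in both lines.

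The perilipins were also compared as shares of their summed level per kilobase, with Plin3 and Plin5, the family members outside the 10. Plin2 made up 82.5% of the sum in vector unstimulated, 86.6% in tSema4B unstimulated, 89.1% in vector NE and 88.3% in tSema4B NE libraries on average. The share of Plin1 was 7.27% ± 0.745 in vector unstimulated and 1.95% ± 0.678 in tSema4B unstimulated cells, and 3.16% ± 0.851 and 1.13% ± 0.478 after NE. Plin1 shares of the vector unstimulated libraries, from 6.45 to 7.90%, exceeded those of all other libraries, which reached at most 4.09%. Plin3, the perilipin that cells without large droplets also express, had a share of 5.70% and 9.92% in vector and tSema4B unstimulated cells and 3.73% and 8.46% after NE. The own level of Plin3 did not pass the test in unstimulated cells (log2 fold change 0.24, adjusted p = 0.203), and after NE it was higher in tSema4B, under the fold threshold (log2 fold change 0.57, adjusted p = 0.00139). Plin5, the perilipin of oxidative tissues, had 25 to 28 reads in vector unstimulated and 0 to 4 in tSema4B unstimulated libraries, and made up at most 0.950% of the sum in any library.

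**Figure D5:**
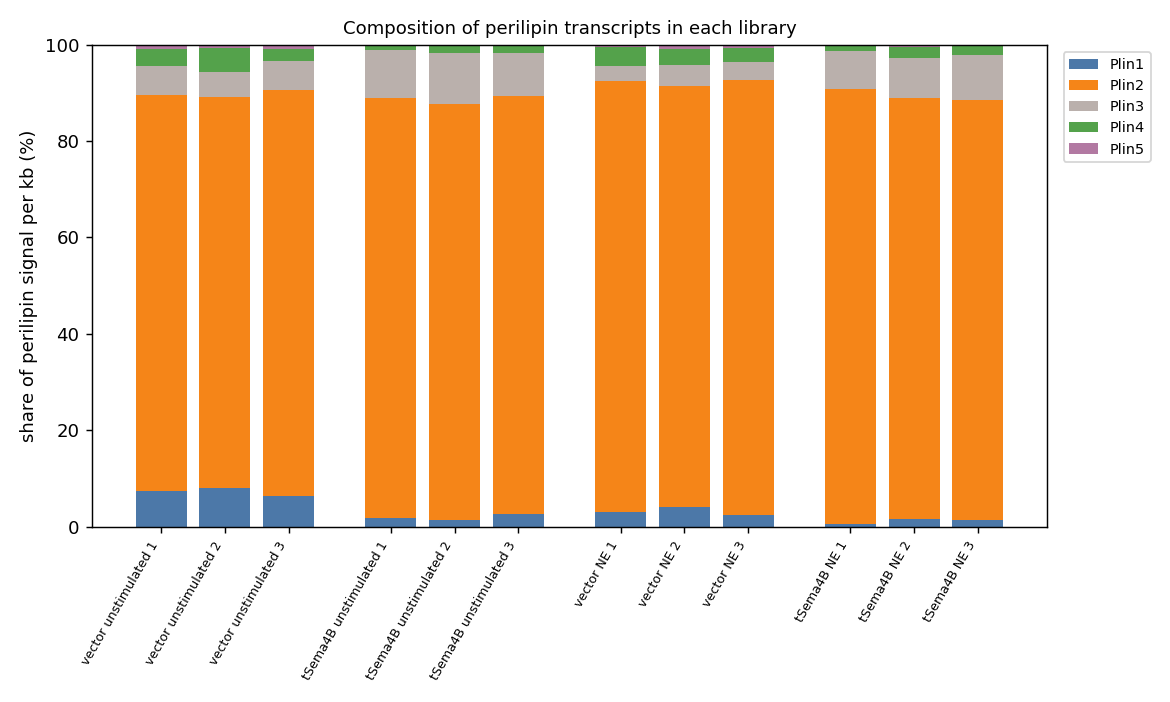
Share of each perilipin in the sum of perilipin counts per kilobase in each of the 12 libraries, as stacked bars from 0 to 100%. Plin2 takes 81.3 to 90.3% in every library, and the Plin1 share is highest in the vector unstimulated libraries.

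Other genes of the pathway were read from lists by role. Of 13 tested lipases and acylglycerol hydrolases outside the 10, 2 were called lower in tSema4B unstimulated cells, Lpl (log2 fold change -1.92, adjusted p = 1.56e-13), which releases fatty acids from lipoproteins, and Pnpla3 (log2 fold change -2.11, adjusted p = 0.0392, on 1 to 8 reads in tSema4B libraries), and the median of the list was -0.26. After NE, Lpl was the 1 called lower (-1.11) and the median was -0.056. Over all genes tested, 2.71% were called lower without NE and 3.73% after it. With the adjusted p alone, 1 gene of the list was higher in tSema4B and 3 were lower without NE (against 5.64% and 7.39% of all genes tested), and 2 were higher and 2 lower after it (against 9.79% and 11.2%). The 2 higher genes, named after their values were seen, were Lipa, the lysosomal acid lipase, in both conditions (log2 fold change 0.41, adjusted p = 0.00671 without NE, log2 fold change 0.60, adjusted p = 1.42e-04 after it), and Ddhd2 after NE (log2 fold change 0.45, adjusted p = 0.0228), all under the fold threshold and without overlap of the libraries. Lpl rose with NE in tSema4B cells (log2 fold change 1.03, adjusted p = 2.10e-08), the interaction passed for it (0.82, adjusted p = 0.00399), and among the patterns outside the 10 it was one of the 2 most like that of Cidec (Pearson r 0.98).

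Of 13 tested lipid droplet proteins outside the 10, 5 were called lower in tSema4B unstimulated cells and 6 after NE (against 2.71% and 3.73% of all genes tested), with list medians of -0.89 and -0.46. Cidea, the brown fat relative of Cidec, had 41.4 to 63.1 normalized counts in vector unstimulated and 4.64 to 7.15 in tSema4B unstimulated libraries. Clstn3, whose adipocyte form sits at the droplet, had 59.9 to 89.0 and 4.64 to 7.15, and it rose with NE in tSema4B cells to 36.9 to 55.8 (log2 fold change 2.88, adjusted p = 2.06e-06), from 3 to 6 reads per unstimulated library. In vector cells it was 106 to 212 after NE, higher in every library but just under the fold threshold (log2 fold change 0.999, adjusted p = 0.0378), and the interaction did not pass (1.88, adjusted p = 0.113). Hsd17b13 had 15 to 18 reads in vector unstimulated libraries and none in tSema4B unstimulated libraries. After NE, Clstn3 (-1.68) and Cidea (-2.36) were again called lower, with Plin5 and Hsd17b13 on few reads. Fitm2, which helps droplets form at the endoplasmic reticulum and was one of the 2 genes most like Abhd5 (Pearson r 0.97), was called lower in both conditions (-1.71 and -1.53).

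Of 14 tested signalling genes that lead to the lipases, from receptors to protein kinase A subunits, 5 were called lower in tSema4B unstimulated cells and 4 after NE (against 2.71% and 3.73% of all genes tested), with list medians of -0.47 and -0.58. With the adjusted p alone, 3 of the 14 were higher in tSema4B and 5 lower without NE (against 5.64% and 7.39% of all genes tested), and 2 were higher and 7 lower after it (against 9.79% and 11.2%). Among those lower after NE, the 3 under the fold threshold were Prkar2a (-0.68, adjusted p = 0.0322) and Prkar2b (-0.94, adjusted p = 0.00203), regulatory subunits of protein kinase A, and the phosphodiesterase Pde3b (-0.61, adjusted p = 0.0187), named after their values were seen. The higher ones were, named after their values were seen, the adenylyl cyclase Adcy3 (log2 fold change 0.75, adjusted p = 0.0158 without NE, log2 fold change 0.76, adjusted p = 0.00967 after it), the catalytic subunit of protein kinase A Prkacb (log2 fold change 0.34, adjusted p = 0.0498 and log2 fold change 0.60, adjusted p = 4.58e-04) and, without NE, the cGMP-dependent kinase Prkg1 (log2 fold change 0.999, adjusted p = 0.0280; after NE 0.83 with adjusted p = 0.0519). The higher ones were all under the fold threshold, and the libraries of the constructs did not overlap for any of the 3 in either condition. Adrb3, the β-adrenergic receptor typical of adipocytes, had 122 to 144 normalized counts in vector unstimulated and 9.28 to 25.0 in tSema4B unstimulated libraries (log2 fold change -3.20, adjusted p = 1.19e-06), and after NE 67.2 to 101 and 7.51 to 11.9. Adora1, the adenosine receptor that restrains lipolysis, had 22 to 46 reads against 0 to 5 in unstimulated cells. Hcar2, another receptor that restrains lipolysis, was called lower with tSema4B in both conditions and rose with NE in both lines (2.00 in vector and 1.95 in tSema4B cells, adjusted p = 0.00481 and 0.00861).

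Of 7 tested genes that handle the fatty acids and glycerol set free, 6 were called lower in tSema4B in both conditions (against 2.71% and 3.73% of all genes tested), with list medians of -1.73 and -1.65. They were Fabp4 (-2.59 without and -2.88 with NE), which carries fatty acids in the cytosol, Aqp7 (-2.56 and -1.65), the glycerol channel of adipocytes, Cd36 (-2.50 and -2.42), Acsl1, Fabp5 and Gk. Gk, glycerol kinase, rose with NE in vector (log2 fold change 1.64, adjusted p = 1.90e-06) and in tSema4B cells (log2 fold change 1.58, adjusted p = 3.92e-06). Fabp4, Cd36, Lpl and Adrb3 also belong to the adipocyte markers described above.

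The vector libraries were not alike for these genes. Vector unstimulated replicate 3 had the lowest value of its group for 9 of the 10 genes and the highest for 0, and vector NE replicate 3 had the lowest for 7 and the highest for 0. Over the fits that left out 1 library in turn, 7 to 8 of the 10 were called lower in tSema4B in each condition. Without vector unstimulated replicate 3 the direction of the NE effect in vector cells turned for Pnpla2, Lipe, Mgll and Plin4, none of which passed the test.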

How the data were processed

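RNAseq of 12 libraries, 3 in each of 4 groups, was used. Per the labels and the study's methods, the authors made cDNA by SMART-Seq2 and single-end Nextera XT libraries, aligned reads with STAR 2.7.9a to the mouse genome (GRCm38.p4, mm10), counted them per gene with HTSeq and normalized them with DESeq2. The signal the authors deposited is this normalized read count per gene. Dividing each by what 1 read is worth in its library gave whole numbers for 100% of values (tolerance 0.01), and these recovered reads entered edgeR and DESeq2. The gene annotation, strand setting and treatment of multimapping reads are not given in the sources used here.

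In R 4.3.3, limma 3.58.1 (trended variances) was fitted to log2(normalized count + 1) over the 4 groups for the 11998 genes that reached 10 normalized counts in 3 or more libraries. P-values (two-sided) were adjusted over these genes after Benjamini and Hochberg. A call needed an adjusted p not above 0.05 together with a log2 fold change not below 1 in size, and for the interaction the adjusted p only. Alternatives were pseudocounts of 0.5 and 10, a filter at 50 or none, scaling of libraries to one total (all genes, or nuclear genes), quantile normalization, the quasi-likelihood test of edgeR 4.0.16, DESeq2 1.42.0, the adjusted p alone, only the libraries compared, a replicate block and each library left out. The fit was also run on simulated data, and no result of that run is used here. Exon lengths came from GENCODE M21 and promoters from RefSeq. The 10 genes, the lists and the motifs were chosen with earlier results of these data known. The rule for named genes took the 10 genes, Sema4b, at most 4 called genes with the largest fold per list and comparison, cell type markers and, per gene, the 2 with the highest Pearson r over the 12 libraries. Plin3 and a few list genes that passed by the adjusted p alone were named outside this rule, after their values were seen.

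Depth was 2841941 to 3682634 reads on genes in vector unstimulated, 2000780 to 2541747 in tSema4B unstimulated, 4739777 to 5409583 in vector NE and 2307190 to 3144946 in tSema4B NE libraries. No 2 libraries of a group agreed within sampling noise (chi-square per degree of freedom 3.65 to 6.12).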

Additional observations from a re-analysis of the deposited data

How the results depend on the processing

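The number of the 10 genes called lower in tSema4B (8 in each condition) stayed between 7 and 8 under the alternatives that kept both thresholds, and all called genes kept their direction. With one library total over all genes, Lipe after NE was -0.97, under the fold threshold. That scaling moved the calls over all genes after NE to 346 higher and 362 lower, and no scaling moved the median of all genes by more than 0.088. For NE in vector cells, 1 gene (Plin1) was called lower with the same total over all genes and 1 with quantile normalization, and with the adjusted p alone 2 were lower and 2 higher. Leaving out 1 library gave 0 to 1 lower there, and 0 to 1 higher for NE in tSema4B cells, where Cidec was lost without tSema4B unstimulated replicate 2. DESeq2 called 1 interaction, and it gave no adjusted p for that of Hilpda. The causes were not tested. Some differences that did not pass turned direction. Hilpda with NE in tSema4B cells was 0.015 with the same total over all genes and 0.010 over nuclear genes, and -0.18 to 0.14 without single libraries. With NE in vector cells the ranges without single libraries were -0.0041 to 0.20 for Pnpla2, -0.025 to 0.28 for Lipe, -0.012 to 0.33 for Mgll, -0.15 to 0.38 for Plin4 and -0.20 to 0.068 for Cidec, and for the interaction -0.10 to 0.21 for Lipe and -0.029 to 0.48 for G0s2. Replicate numbers shared across groups did not pair the libraries (18 pairs, correlation of deviations -0.047 to 0.028, 0 over 0.1, 1 of 12 libraries most like its own number), and with the replicate block 8 genes were called lower in each condition and Pnpla2 with NE in tSema4B cells passed the adjusted p, with the fold under its threshold. Depth limited the tSema4B libraries most, where Mgll rested on 20 reads in 1 library.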
